A study of Mus musculus with 8 samples.

Results

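The Chd (chromodomain helicase DNA-binding) genes of the mouse, Chd1 to Chd9, were examined for DNA double-strand breaks in embryonic stem (ES) cells without Chd1. All 9 were found by symbol among the 22367 protein-coding genes of the GENCODE M1 annotation of the mm9 genome. They were taken as a gene family by name, with earlier results of these data known. DSB-seq tags the free DNA ends of fixed nuclei with biotin by terminal transferase, enriches the tagged fragments and sequences them. It was done in established Chd1 KO ES cells (genotype Chd1delta/delta, 2 replicates) and in control ES cells (genotype Chd1fl/delta, labelled WT, 2 replicates), so that 1 deleted Chd1 allele was also present in the control. Cells of both genotypes grew in medium with serum and LIF. The replicates of a genotype were combined before peaks were called, which leaves 1 peak list per genotype, no error between replicates and no test between the genotypes.

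Chd proteins are ATP-driven motors of the SNF2 superfamily that slide, assemble or evict nucleosomes, and each carries a tandem pair of chromodomains. They are usually placed in 3 subfamilies. Chd1 and Chd2 also have a DNA-binding region, and Chd1 binds histone H3 methylated at lysine 4 and works at transcribed genes, where it is known to be needed for the high transcriptional output of ES cells. Chd3, Chd4 and Chd5 have PHD fingers and serve as the motor of the NuRD complex, which joins nucleosome remodeling to histone deacetylation. Chd6, Chd7, Chd8 and Chd9 form the third group. Mutations of CHD7 cause CHARGE syndrome and mutations of CHD8 are linked to autism in people. In the Chd1 KO cells Chd1 is both a member of the family and the gene that was deleted.

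In Chd1 KO cells 6 of the 9 genes had a DSB-seq summit within 1 kb of an annotated transcription start site (TSS), against 15.9% of all protein-coding genes. They were Chd1, Chd3, Chd4, Chd5, Chd6 and Chd7, and together they had 9 such summits. Chd9 had 1 summit deep in an intron, and Chd2 and Chd8 had none. By subfamily these were 1 of 2 genes, 3 of 3 and 2 of 4. In control cells none of the 9 genes had a summit, near a start or in the gene. The 6 genes with a summit near a start were the 6 whose promoters had the highest GC content.

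The 150 bases upstream of the outermost start are shown for Chd2 and Chd8, the genes without any summit. They are not matched to the sequences under peaks shown further below. Those were picked as the longest runs of G and C and lie downstream of the outermost start. The letters run 5′ to 3′ on the strand of the gene, and capitals, of which these stretches have none, mark runs of G and C of at least 12 bases without an A or T. Positions are mm9.
Chd2, chr7:80686633-80686782, minus strand: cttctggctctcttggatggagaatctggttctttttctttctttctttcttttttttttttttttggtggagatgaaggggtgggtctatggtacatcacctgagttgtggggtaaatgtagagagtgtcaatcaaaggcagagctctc
Chd8, chr14:52857467-52857616, minus strand: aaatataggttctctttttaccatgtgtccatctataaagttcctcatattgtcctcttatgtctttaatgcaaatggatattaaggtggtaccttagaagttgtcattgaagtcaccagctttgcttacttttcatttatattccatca
The stretch of Chd2 had 41.3% GC and the stretch of Chd8 32.7% GC, and neither held a CpG or a run of G and C longer than 4 bases. Neither stretch is known to be the promoter in use. The RefSeq start of Chd8 was placed 20.0 kb away. Within 1 kb of it the GC content was 51.7%, the ratio of observed to expected CpG 0.722 and the longest run 15 bp. No RefSeq start was placed for Chd2. Within 1 kb of its outermost GENCODE M1 start the GC content was 39.6%, the ratio 0.416 and the longest run 12 bp.

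The peaks lay over runs of G and C. The longest run that touched the peak is shown with 5 flanking bases for Chd3, Chd4, Chd5, Chd6, Chd7 and Chd9, with the run in capitals and on the strand of the gene. For Chd3 and Chd7, which had 2 peaks each near the start, the peak with the higher fold enrichment is shown.
Chd3, chr11:69182403-69182445, minus strand: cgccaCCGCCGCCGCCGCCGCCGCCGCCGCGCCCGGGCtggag
Chd4, chr6:125046365-125046392, plus strand: ggcgtCCCGGGGCCCGCGGGCCGtcccc
Chd5, chr4:151713248-151713282, plus strand: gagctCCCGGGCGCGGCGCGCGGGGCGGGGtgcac
Chd6, chr2:160934580-160934606, minus strand: gctgaGGGGCCGCGGCGGCGCGaggcc
Chd7, chr4:8618384-8618422, plus strand: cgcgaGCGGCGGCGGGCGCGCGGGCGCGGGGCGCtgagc
Chd9, chr8:93432437-93432478, plus strand: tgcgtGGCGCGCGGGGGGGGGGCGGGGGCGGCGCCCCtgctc
All 10 peaks of the members held a run of at least 12 bp, as did 94.6% of the 5671 peaks of the Chd1 KO list. In 8 of the 10 the summit lay in such a run or within 50 bp of one, against 78.2% of all peaks. This run was not always the one shown. Only 2 of the 10 summits lay inside such a run, against 20.6% of all peaks. By these shares the peaks of the Chd genes were like the rest of the list.

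**Figure D1:**
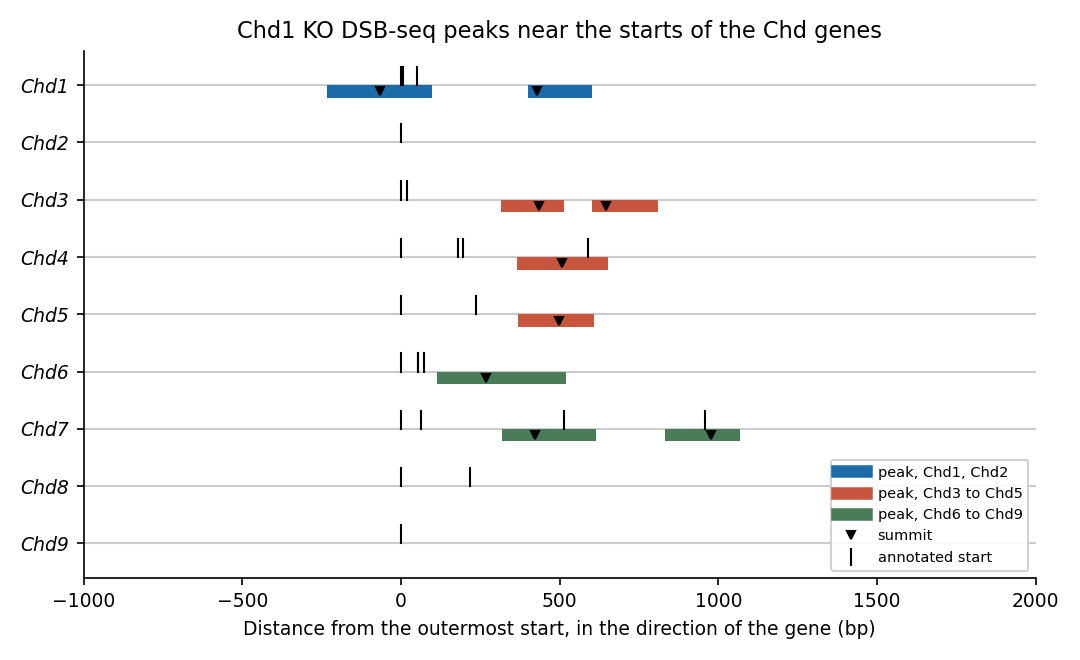
Peaks of the Chd1 KO list near the outermost annotated start of each Chd gene, with distance in bp in the direction of the gene on the horizontal axis. Coloured bars are peaks, triangles are summits and vertical lines are annotated starts, and 8 of the 9 summits lie downstream of the outermost start, with no peak in the window of Chd2, Chd8 or Chd9.

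Chd1, at chr17:15841931-15909574, had 2 summits near its start. The first peak (chr17:15841697-15842029) spanned the outermost TSS, and its summit lay 66 bp upstream. MACS2, the peak caller used by the authors, gave it a fold enrichment of 4.45, which is the reads at the summit plus 1 divided by the local background of its own library plus 1, and a −log10 q-value of 5.75. At the summit lay 21 reads (95% Poisson interval 13 to 32.1) over a background of 3.94. These read numbers were recovered from the fold enrichment and p-value of each peak, and their intervals cover counting error only. The second peak (chr17:15842330-15842532) had its summit 428 bp downstream of the outermost TSS, in intron 1, with a fold enrichment of 3.40 and 16 reads (9.15 to 26.0). The intervals of both peaks overlapped, so their order is within counting error. By sequence match, the start of 5830433I10Rik, a long non-coding RNA of RefSeq on the opposite strand, fell 18 bp from the second summit. That start also lay 476 bp from the first summit. Both summits are thus near a start of either gene, and the peaks carry no strand to tell them apart. The promoter and first intron of Chd1 thus still gave DSB-seq reads in the Chd1 KO cells. Which exon the deletion removes is not given in the sources used here, and peak lists hold neither a check of the deletion nor markers of ES cells.

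Chd2, the closest relative of Chd1, had no Chd1 KO summit within 1 kb of any of its 5 annotated starts or in its 115 kb span (chr7:80571577-80686632). The nearest summit (chr7, position 80703008) lay 16.4 kb upstream of its outermost start. That peak had a fold enrichment of 5.74 with 27 reads (17.8 to 39.3), higher in fold than any peak assigned to a Chd gene. It lay 273 bp downstream of the start of Chaserr, a long non-coding RNA that is known to restrain Chd2 in cis. Chaserr is not in GENCODE M1 and its start was placed by matching the RefSeq promoter sequence to mm9. Its peak was seen after the values were known and does not count toward the members.

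The NuRD motors Chd3, Chd4 and Chd5 all had summits in intron 1 of protein-coding transcripts. Chd3 (chr11:69156775-69182928) had 2, at 434 and 646 bp downstream of the outermost TSS. The summit nearer the start had a fold enrichment of 4.23 and 20 reads (12.2 to 30.9), and the farther one 3.48 and 16 reads (9.15 to 26.0). Both summits also lay inside Gm17305, a gene annotated on the opposite strand, and DSB-seq peaks carry no strand to tell the genes apart. Chd4 (chr6:125045999-125080609) had 1 summit, 508 bp downstream of its outermost TSS and 80 bp upstream of another of its starts. It was the weakest gene of the 6 by its best peak, with a fold enrichment of 3.75, 17 reads (9.90 to 27.2) and a −log10 q-value of 3.48. Chd5 (chr4:151712760-151764303) had 1 summit, 498 bp downstream of the outermost TSS, with a fold enrichment of 4.56 and 26 reads (17.0 to 38.1).

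In the third subfamily Chd6 and Chd7 had summits near the start. Chd6 (chr2:160772714-160934811) had 1, 269 bp downstream of the outermost TSS and in intron 1, with a fold enrichment of 4.64 and 26 reads (17.0 to 38.1). This was the highest fold enrichment of the 9 summits near a start. Chd7 (chr4:8617553-8794806) had 2, at 421 and 976 bp downstream of its outermost TSS, with fold enrichments of 3.88 and 3.95 and 23 reads each (14.6 to 34.5). The second lay 17 bp downstream of another Chd7 start, in the untranslated part of exon 1 of that transcript. Of the 6 genes 3 thus had a pair of summits. Among the 3560 protein-coding genes with a summit near a start 8.40% had 2 or more, and among those with at least 5 annotated starts, as all 6 have, 10.7%. The members of a pair lay 494 bp apart in Chd1, 212 bp in Chd3 and 555 bp in Chd7.

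Chd9 (chr8:93352734-93578407), the longest of the family, had no summit within 1 kb of a TSS, but 1 in its intron 2, 79.9 kb downstream of the outermost start. This peak (chr8:93431905-93432986) was 1082 bp wide, and only 1 of the 5671 Chd1 KO peaks was wider. It had a fold enrichment of 4.79, 33 reads (22.7 to 46.3) and a −log10 q-value of 9.88, the highest values among the peaks of the members. Its summit lay 285 bp upstream of the start of Gm6658, a gene annotated as protein-coding on the opposite strand, so it was near a start, but not one of Chd9. A summit in the gene over 1 kb from all of its own starts was found for 4.14% of all protein-coding genes. Among those of at least 20 kb it was 7.96%, and summits near a start of another gene are included. Over the summed length of the 9 genes, summits over 1 kb from their own starts numbered 1.11 per Mb. Over all protein-coding genes it was 1.06 per Mb.

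Chd8 had no summit near any of its 11 annotated starts or in the gene (chr14:52817826-52857466). The nearest one lay 1.20 kb beyond its 3′ end, 283 bp downstream of the start of Supt16h, a subunit of the histone chaperone FACT, with a fold enrichment of 5.74 and 23 reads (14.6 to 34.5). The RefSeq promoter of Chd8 matched mm9 20.0 kb upstream of the gene as GENCODE M1 gives it. The Chd1 KO summit nearest to that position was 60.8 kb away. RefSeq promoters could be placed in mm9 for 5 of the 9 genes, and no summit was gained or lost by using them. The sequence measures of Chd8 did differ between its starts.

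**Figure D2:**
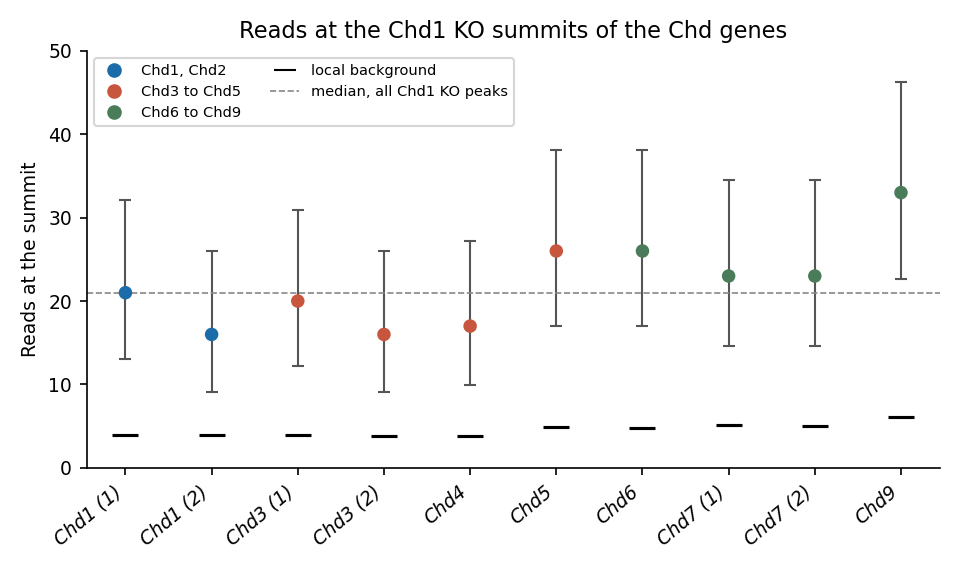
Reads at each Chd1 KO summit of the Chd genes (vertical axis), numbered along the gene where there are 2. Points are recovered read numbers with exact 95% Poisson intervals, short bars are the local background and the dashed line is the median of all 5671 Chd1 KO peaks. All intervals overlap one another. Peaks are called for reads above the local background, so their distance from it is not a separate result.

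The summits near a start had 16 to 26 reads each, with a median of 21.0, which is also the median of all Chd1 KO peaks. Their fold enrichment ranged from 3.40 to 4.64, and 7 of the 9 were below 4.53, the median over the 3673 Chd1 KO peaks within 1 kb of a TSS. None reached 5, a level at which 1900 of the 5671 peaks and 4.88% of all protein-coding genes remained. The 6 genes were thus called, but by peaks of ordinary or low enrichment. With a window that ended 100 bp downstream of a TSS, 3 of them (Chd1, Chd4 and Chd7) kept a summit. The paper used such a window, from 1 kb upstream, to define its DSB-prone genes. The share of all protein-coding genes was not computed for it, so this count has no background beside it. The lowest intervals of reads began at 9.15 and the highest background was 5.18 at these summits. Peaks are called for reads above the local background, so this gap follows from the call and is no separate support.

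No control summit lay within 1 kb of a TSS of any protein-coding gene (0%, where 3 counts of the total give an upper limit of 0.0134% and the Wilson interval one of 0.0172%), and 0.0313% of protein-coding genes had one in the gene body. The control list held 54 peaks in all, and the nearest to a Chd start lay 2.06 Mb away, from Chd9. The lists do not reach equally deep. The q-value was set within each library, and the weakest Chd1 KO peak had a −log10 p-value of 4.88 while the weakest control peak had 7.13. Without scaling, 5044 of the 5671 Chd1 KO peaks and 7 of the 10 member peaks reached the weakest control −log10 p-value. With reads and background scaled to the control depth, 6 of the 9 summits near a start, in 5 of the 6 genes, would still have passed the weakest control peak. The peak of Chd4 and the weaker peaks of Chd1 and Chd3 would not, so for these the absence of a control peak does not tell the genotypes apart. For the others, the recovered read numbers would have been within reach of the control list, and no peak was called there. The lowest scaled −log10 p-value among them was 8.04, for the first peak of Chd7. This scaling leaves out the Poisson intervals of the reads and any difference in noise between the libraries. The scaled share of all Chd1 KO peaks past this limit was not computed. Whether the genotypes differ at these genes was not tested.

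In the gene body, 7 of the 9 genes had a Chd1 KO summit, against 15.3% of all protein-coding genes. This count mostly repeats the one near the starts. Without the first 1 kb after each TSS only Chd9 was left.

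The promoters of the family were rich in GC. Within 1 kb of the outermost start the median of the 9 genes was 60.6%, against 51.1% over all protein-coding genes. Chd5 had 67.7%, Chd7 66.6%, Chd1 66.1%, Chd6 60.8%, Chd4 60.6% and Chd3 60.4%. Chd9 followed with 55.9%, then Chd8 with 44.5% and Chd2 with 39.6%. At the RefSeq start of Chd8 the GC content was 51.7%, higher than 52.6% of protein-coding genes and still below that of the 6 genes with a summit near a start. The 6 genes with a summit near a start did not overlap in GC content with the 3 without, and all 6 were in the top decile of protein-coding genes. Over all protein-coding genes the groups did overlap. The range was 34.1% to 77.0% (median 58.6%) with a summit near a start and 26.0% to 75.0% (median 49.8%) without. By its GENCODE M1 start, Chd2 was in the lowest decile, and no RefSeq start was placed for it.

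**Figure D3:**
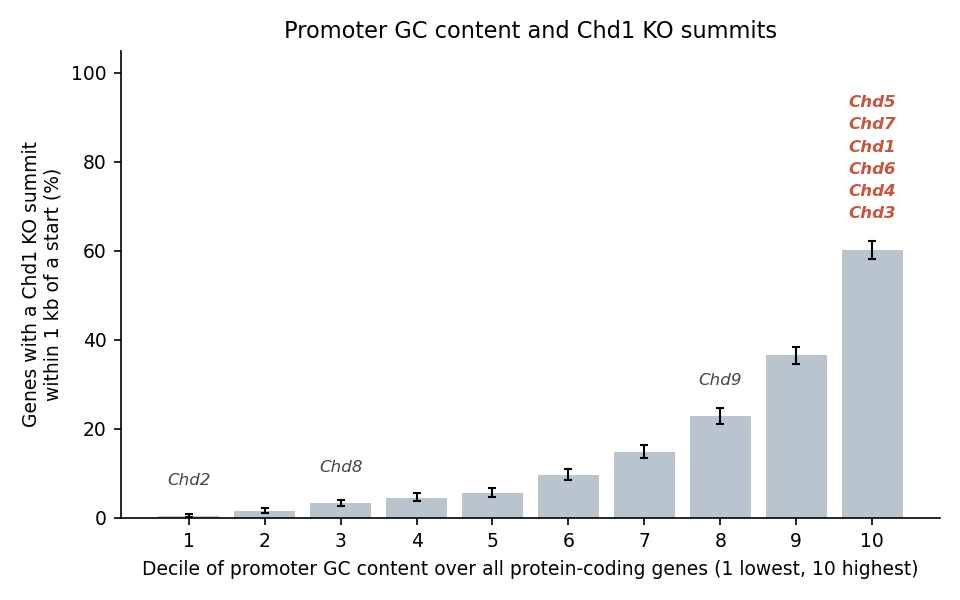
Share of protein-coding genes with a Chd1 KO summit within 1 kb of a TSS (vertical axis, percent, with Wilson 95% intervals) by decile of promoter GC content (horizontal axis). The share rises from 0.489% in the lowest to 60.3% in the highest decile, where the 6 Chd genes with a summit (bold) lie, while Chd2, Chd8 and Chd9 lie in deciles 1, 3 and 8.

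Read against genes of like GC content, the family stood out less. In the top quintile (the highest 20%) of promoter GC, 48.4% of protein-coding genes had a Chd1 KO summit near a start, and among those in the upper 3 quintiles of length with at least 5 annotated starts it was 58.8%. All 6 Chd genes of that kind had one. In the lowest 2 quintiles, which by their GENCODE M1 starts hold Chd2 and Chd8, the share was 2.48%, and in the fourth quintile, which holds Chd9, it was 18.9%. The same was seen among the single starts within these genes. Of the 63 annotated starts of the family 19 had a summit within 1 kb, and these had 60.4% to 76.6% GC, while the other 44 had 31.3% to 59.3%. Neighbouring starts share most of their window, so the 63 are not independent. Over all protein-coding genes, 56.6% of starts with at least 60% GC and 7.90% of those with less had a summit. GC content moved with the calls throughout, and its part in them was not tested.

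Other sequence measures were taken over the same window. The longest run of G and C within 1 kb of the outermost start was 39 bp in Chd7, 35 bp in Chd1, 33 bp in Chd3, 29 bp in Chd6, 25 bp in Chd5, 21 bp in Chd9, 18 bp in Chd4, 12 bp in Chd2 and 7 bp in Chd8. The median was 25.0 bp, against 12 bp over all protein-coding genes. Chd9 had a longer run than Chd4 and no summit near its start, so the genes with and without a summit overlapped in this measure. The number of runs of at least 12 bp did not overlap, with 6 in Chd4 to 23 in Chd7 among the genes with a summit near a start, and 2 in Chd9, 1 in Chd2 and 0 in Chd8. Over all protein-coding genes the median number was 6 in those with a summit near a start and 0 in those without. The ratio of observed to expected CpG was 1.18 in Chd7 and 0.993 in Chd1, both near the top of all protein-coding genes, and 0.571 to 0.767 in Chd3, Chd4, Chd5 and Chd6. It was 0.416 in Chd2, 0.397 in Chd9 and 0.131 in Chd8, all below the median of 0.468. At the GENCODE M1 starts the ratio thus did not overlap between the groups either. Over all protein-coding genes the median ratio was 0.733 with a summit near a start and 0.389 without. For Chd8 the low ratio and the count of 0 runs hold at the GENCODE M1 start only. At its RefSeq start the ratio was 0.722 and the longest run 15 bp. This ratio is above those of Chd4 (0.571) and Chd5 (0.714), so with it the groups overlap. A G-quadruplex motif, 4 stretches of at least 3 G separated by 1 to 7 bases, on either strand, was found in the 2001-bp promoter window of 8 of the 9 genes. Chd2 had no such letters in its window. The motif was present in 55.3% of all promoters and in 88.7% of those of the top GC quintile.

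**Figure D4:**
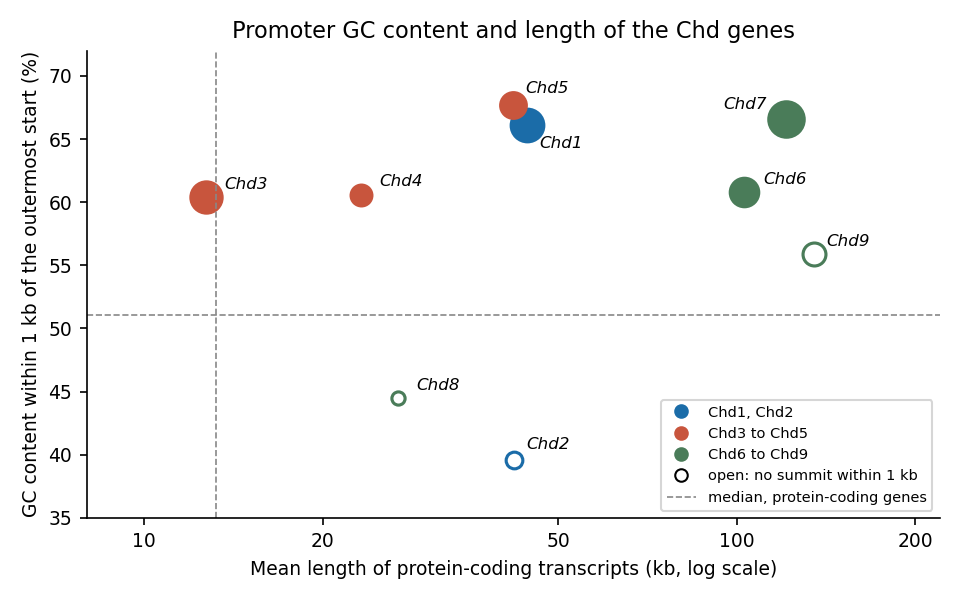
Mean length of protein-coding transcripts (horizontal axis, kb, log scale) and GC content within 1 kb of the outermost start (vertical axis, percent) of the 9 Chd genes, with larger circles for a longer longest run of G and C. Filled circles have a Chd1 KO summit within 1 kb of a TSS and open circles do not, and the filled circles are separated from the open ones by GC content but not by length.

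Most Chd genes were long. The mean length of their protein-coding transcripts was 135 kb for Chd9, 121 kb for Chd7, 103 kb for Chd6, 44.2 kb for Chd1, 42.0 kb for Chd2, 41.9 kb for Chd5, 26.8 kb for Chd8, 23.2 kb for Chd4 and 12.7 kb for Chd3. The median of 42.0 kb compares with 13.2 kb over all protein-coding genes, and only Chd3 was below that. Across all protein-coding genes a Chd1 KO summit near a start was found in 4.54% of the shortest and 31.5% of the longest quintile. Within the family length did not sort the genes, as the longest one had no summit near its start and the shortest one had 2. The pair Chd1 and Chd2 was nearly matched in length and differed in promoter GC by more than any other pair of a subfamily.

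Other remodelers and the partners of the Chd proteins were read in the same way, beside 15.9% of all protein-coding genes and 48.4% of those in the top GC quintile. Of 22 other SNF2-type motors, 6 (27.3%, Wilson 95% interval 13.2 to 48.2) had a Chd1 KO summit near a start: Smarca4, Smarca5, Ino80, Srcap, Chd1l and Btaf1. Ino80, the motor of the INO80 complex, had the highest fold enrichment of these (5.58, 23 reads), followed by Srcap (4.87, 22 reads), which deposits H2A.Z, and Btaf1 (4.31, 19 reads), which removes TBP from DNA. Smarca4 (Brg1) and Smarca5 (Snf2h) are the main motors of the BAF and ISWI complexes in ES cells. For the 9 Chd genes the share was 66.7% (35.4 to 87.9), and its interval overlapped that of the other motors. The median promoter GC of the other motors was 52.0%, with 5 of the 22 in the top GC quintile, of which 3 had a summit.

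Of 12 NuRD subunits that join Chd3, Chd4 or Chd5, 4 (33.3%, 13.8 to 60.9) had a summit near a start. These were Gatad2a (4.80, 23 reads), Cdk2ap1 (4.64, 27 reads), the scaffold subunit Mta1 (4.43, 20 reads) and its relative Mta3. The list was rich in GC like the Chd genes, with a median of 60.3% and 10 of 12 genes in the top quintile. Of those 10, 4 had a summit, against 48.4% of all protein-coding genes in that quintile. The deacetylases Hdac1 and Hdac2 had none. Among 10 FACT and elongation factors known to work with Chd1, 2 (20.0%, 5.67 to 51.0) had one, near the 15.9% of all protein-coding genes. Cdc73, a subunit of the PAF1 complex, had the highest fold enrichment of all the genes named here (6.80, 30 reads), and Supt16h was the other (5.74, 23 reads). Both lay outside the top GC quintile, with 55.9% for Cdc73 and 53.7% for Supt16h. The median promoter GC of this list was 53.3%, and its 1 gene in that quintile had no summit near a start. None of the 44 genes of these lists had a control summit, and no protein-coding gene had one near a start. Over the 3 lists together 12 of 44 genes (27.3%) had a summit near a start, against 6 of the 9 Chd genes and 15.9% of all protein-coding genes. The lists hold 10 to 22 genes each, so the intervals are wide, and the difference from the Chd genes was not tested.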

How the data were processed

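DSB-seq of mouse ES cells was studied through 2 deposited peak lists, 1 for Chd1 KO and 1 for control, each made from 2 combined replicates. According to their methods, the authors aligned the reads to mm9 (Bowtie2), dropped uncertain alignments and duplicate positions, and ran MACS2 with its default q-value limit (0.05), leaving out blacklisted regions. The deposited fold enrichment is a ratio within 1 library, of reads at the summit plus 1 to local background plus 1. Also deposited are a −log10 p-value, a −log10 q-value and a score equal to 10 times the latter. ChIP-seq was not analyzed here.

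Summits (peak start plus offset) were compared with all TSSs of each gene in GENCODE M1, with a window of 1 kb. Gene length was the mean over protein-coding transcripts, and promoter GC was taken within 1 kb of the outermost TSS. Reads and background at each summit were recovered from fold enrichment and p-value, which on simulated data returned all 4991 values. At least 13 reads lay at every Chd1 KO summit and 17 at every control summit, so weaker sites are out of reach. Read totals per sample were not used. Shares have Wilson and reads exact Poisson 95% intervals; these and the limit of 3 counts set beside a zero cover counting error only. RefSeq promoters (GRCm38.p6) were placed in mm9 by exact sequence match. All 9 members are described, and of each list the genes with a summit near a start, with values for the 3 of highest fold enrichment. The members and lists were chosen with earlier results of these data known. Python 3.11.15, NumPy 2.4.6, pandas 2.3.3, SciPy 1.17.1, pysam 0.24.0, samtools 1.23.1 and Matplotlib 3.10.9 were used.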

Additional observations from a re-analysis of the deposited data

How the results depend on the processing

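No paired analysis was possible because peaks were called on combined replicates, and for the same reason no replicate could be left out. Counts were taken as moved when they changed by over 1.5 times, the share of all genes when it left its Wilson interval, and medians when they changed by over 1 SD of the members. By this measure 10 of 33 alternatives moved a result. With a fold enrichment of at least 5, the count of Chd genes with a Chd1 KO summit fell to 0 near a start and 0 in the gene body, and their summits to 0, while the share of all protein-coding genes fell from 15.9% to 4.88%. With a TSS window of 1 kb upstream and only 100 bp downstream, 3 genes remained (Chd1, Chd4 and Chd7), since most summits lie farther downstream. For that window the share of all protein-coding genes was not computed. Without the first 1 kb after each TSS, 1 gene (Chd9) kept a summit in its body. The share of all protein-coding genes was 9.89% among autosomal genes with 1 annotated TSS, 14.3% at the outermost TSS alone, 15.3% for peaks with a −log10 q-value of at least 3, and 14.2% for peaks at least as significant as the weakest control peak. At the last setting, chosen after seeing the data like the fold limit for all genes, 5 Chd genes kept a summit near a start, without Chd4. The median length of the Chd genes was 67.6 kb in place of 42.0 kb by the whole span and by the longest transcript, a change within 1 SD of the members but over 1.5 times.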
